A study of Drosophila melanogaster with 3 samples.

Results

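The genes described are 10 Drosophila melanogaster genes of the piRNA pathway and the germline: cuff, rhi, Panx, piwi, aub, AGO3, vas, zuc, bam and bgcn. They were chosen by name, with earlier results of these data known, out of 13945 protein-coding genes on the 6 arms. Each was taken as its Ensembl gene body plus 2000 bp on each side. All 10 were found in the annotation, 4 of them on 2L, 4 on 2R, AGO3 on 3L and bam on 3R. The question was where a tagged zinc finger protein, CG3281, was found at these genes, and whether it was found there in every replicate.

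PIWI-interacting RNAs, or piRNAs, are small RNAs that guide PIWI proteins to transposon transcripts and silence them, mainly in the gonads. Their precursors come from clusters of transposon remnants, which in the fly germline are marked by the HP1 relative Rhino (rhi) and its partner Cutoff (cuff). Zucchini (zuc) cuts the precursors, Aubergine (aub) and AGO3 amplify the small RNAs in the perinuclear nuage together with the helicase Vasa (vas), and Piwi (piwi) with Panoramix (Panx) brings about silencing of transposons in the nucleus. The genes bam and bgcn encode partners that drive the daughters of germline stem cells into differentiation.

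The data are ChIP-seq libraries made with an anti-GFP antibody from whole embryos aged 0 to 24 h, of pooled sexes, from a transgenic line that stably carries CG3281 with GFP at its C-terminal end. The labels give 1 group, CG3281-GFP embryo ChIP, with 3 biological replicates, and every library carries the transgene. The promoter that drives the transgene is not given in the sources used here, no untagged line was used here, and in whole embryos a region in few cells and a weak region in many cells cannot be told apart. Nothing in the labels says whether the replicates came from separate collections of embryos.

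Each replicate's list holds 30000 regions with their background, and so does the list from the pooled replicates. A reproducible set, which the authors drew from these lists by the irreproducible discovery rate (IDR), has 6565 peaks, and these are the strongest regions of the pooled list. The signal is the authors' own value per region and has a different scale in each list, with a median of 33.9 in replicate 1, 38.7 in replicate 2, 43.7 in replicate 3 and 98.3 for the pooled replicates. Signals are therefore given below also as multiples of the list's median and as ranks, where rank 1 is the strongest region. In the replicates, rank 6565 lay at a signal of 63.4, 70.3 and 83.2. Read depth is unknown, since lists of regions hold no read counts.

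The sequences under or beside the summits of 3 genes on 2L are shown first, because the positions of these summits between neighbouring starts of transcription (TSSs) are what the results turn on. They come from the RefSeq sequence of the same assembly as dm6, are written 5′ to 3′ on the strand of piwi, zuc or vas, and leave out exons. Capitals mark matches to any of the 9 motifs described further down. The first sequence is the stretch between piwi and CG12253 that holds the pooled summit and the summits of all 3 replicates with 50 bp on either side (chr2L:10987506-10987796, minus strand), and it is rich in A and T, with 23.4% G and C. The second is the whole gap between the TSSs of zuc and dgt2 (chr2L:11989883-11989935, minus strand). The pooled summit lies outside this gap, 23 bp downstream of the dgt2 TSS, and only the replicate 3 summit lies inside it. The third is the stretch around the summit beyond the 3′ end of zuc, between CG6686 and CG34163 (chr2L:11988043-11988143, minus strand). The fourth lies upstream of vas (chr2L:15061489-15061589, plus strand) and the fifth is the stretch of a vas intron at an inner TSS of vig (chr2L:15068079-15068151, plus strand).
piwi to CG12253: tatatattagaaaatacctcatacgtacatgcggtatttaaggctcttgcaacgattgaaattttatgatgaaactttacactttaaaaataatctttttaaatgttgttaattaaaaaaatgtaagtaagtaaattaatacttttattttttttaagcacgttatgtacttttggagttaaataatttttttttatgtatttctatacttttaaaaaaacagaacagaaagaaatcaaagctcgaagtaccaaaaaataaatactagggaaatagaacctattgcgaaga
zuc to dgt2: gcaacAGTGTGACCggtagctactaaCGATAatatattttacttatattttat
zuc downstream: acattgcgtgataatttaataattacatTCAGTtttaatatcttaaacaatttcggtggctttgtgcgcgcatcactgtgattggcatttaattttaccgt
vas upstream: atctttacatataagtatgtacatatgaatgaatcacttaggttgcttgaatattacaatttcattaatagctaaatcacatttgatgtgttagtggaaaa
vas intron at vig: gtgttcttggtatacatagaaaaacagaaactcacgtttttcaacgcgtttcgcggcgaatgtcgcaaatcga

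A summit of the reproducible set lay within 500 bp of a TSS at 5 of the 10 genes: bgcn, cuff, piwi, Panx and zuc. The exact 95% interval of this share, for counting error over genes only, was 18.7% to 81.3%, and 24.8% of all protein-coding genes, a share within the interval, had such a summit. Over the gene body plus 2000 bp, 6 of the 10 held a reproducible summit, vas being the sixth, beside 42.3% of all genes. With the background regions of the pooled list counted too, 7 of the 10 were called at a TSS, vas and bam being added, beside 47.5% of all genes, and 8 had one in the wider window, rhi being added, beside 66.9%. The exceptions were aub and AGO3, which had none in any list. The reproducible peaks in these windows numbered 8, the pooled regions 20, and the regions of replicates 1, 2 and 3 numbered 24, 23 and 21. Among the strongest 6565 regions of a replicate, 4 of the 10 genes were called at a TSS in each of the 3, beside 24.8%, 26.3% and 24.1% of all genes in replicates 1, 2 and 3. The genes bgcn, cuff and Panx were among the 4 every time, so 3 of 10 were found in all replicates, beside 18.5% of all genes. The remaining gene was vas in replicate 1 and piwi in replicates 2 and 3.

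**Figure D1:**
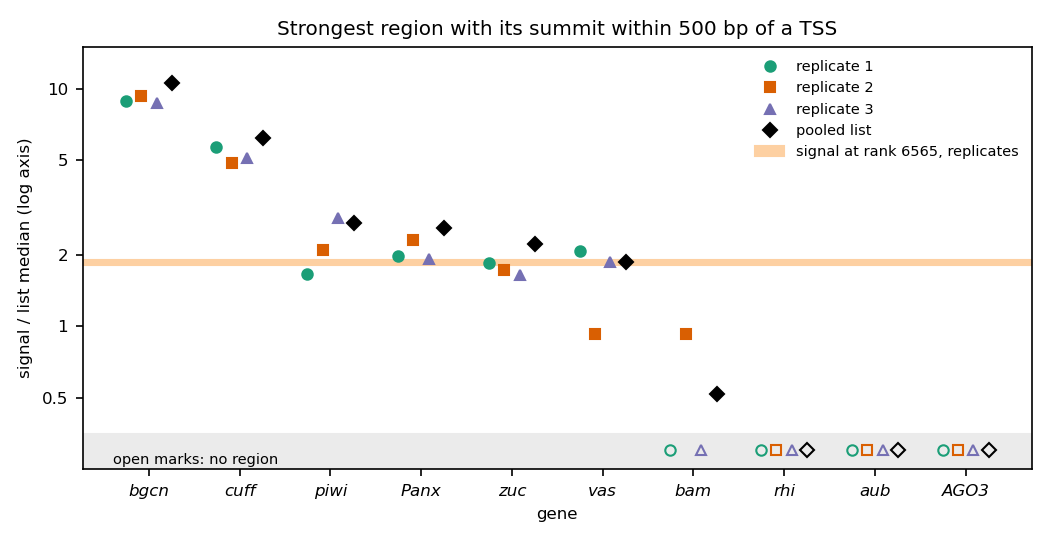
Signal of the strongest region with its summit within 500 bp of a TSS, as a multiple of the list's median on a log axis, for the 10 genes in the lists of replicates 1, 2 and 3 and the pooled list. Open marks stand for no region, and the band for the signal at rank 6565 of the replicates. The marks of bgcn and cuff lie well above the band in every replicate, those of piwi, Panx, zuc and vas lie around it, and rhi, aub and AGO3 have no such region.

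The strongest TSS peak of the 10 genes was that of bgcn, which encodes an RNA helicase-like partner of Bam. The gene (FBgn0004581) is on 2R, minus strand, from 23853270 to 23858921. Its peak, from 23858628 to 23858939, had a signal of 302, 362 and 383 in replicates 1, 2 and 3, at ranks 630, 597 and 636, and of 1043 in the pooled list, at rank 596. The replicates gave it nearly the same rank, and relative to the list's median the signal was 8.99 ± 0.310 (SD, n = 3). The summit lay downstream of the TSS, inside the 5′ UTR, at 144, 134 and 131 bp by replicate and 135 bp by the pooled call. The gene has no divergent partner, a gene whose TSS lies within 1000 bp upstream on the other strand. Its signal exceeded that of 85.0% of the 3456 genes with a reproducible peak at a TSS. By the 3 replicate values, the genes with the most similar TSS peaks out of 3287 were EMC6 and Hr96, which share 1 peak, at a distance of 0.0951 on the log2 scale, and scny at 0.0971.

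Weaker regions stood at the other genes of the bgcn window. Pym, whose product binds an exon junction complex factor, lies within an intron of bgcn, and a pooled region of signal 154 (rank 8901) had its summit 38 bp upstream of the Pym TSS. This region was found at 0.918 times the list's median in replicate 1 and 2.23 times in replicate 2, where it ranked 4912, and not in replicate 3. At the start of ytr, beyond the 3′ end of bgcn, a pooled region of signal 134 stood at 1.21 ± 0.468 (SD, n = 3) times the median. Its summit was also 86 bp upstream of the TSS of gbb, on the other strand. In replicate 2 the value came from a region with its summit 101 bp downstream of the gbb TSS. That region also lay over the summit of a further pooled region at gbb, of signal 61.0. None of these pooled regions belongs to the reproducible set.

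At cuff, which encodes a relative of a decapping exonuclease that protects cluster transcripts, a reproducible peak lay between cuff and its divergent partner CG13185. The gene (FBgn0260932) is on 2R, plus strand, from 11886067 to 11887603, and the partner's TSS is 482 bp upstream. The peak, from 11885662 to 11885884, had a signal of 194, 189 and 223 in replicates 1, 2 and 3, at ranks 1294, 1624 and 1519, and of 609 in the pooled list. All 3 replicates placed it at 5.23 ± 0.428 (SD, n = 3) times the median, and their summits fell within 6 bp of each other. The summit was nearer the partner: it lay 314 bp upstream of the cuff TSS and 168 bp upstream of the TSS of CG13185.

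A second, weaker region closer to cuff had its pooled summit 86 bp upstream of the TSS. Its signal was 70.6 in replicate 1, 48.0 in replicate 2 and 42.7 in replicate 3, or 1.43 ± 0.577 (SD, n = 3) times the median. It ranked 5643 in replicate 1 and 11177 and 15423 in replicates 2 and 3, so that in replicates 2 and 3 it was among the middle ranks of a list that includes background. In the pooled list its rank was 8842, outside the reproducible set.

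Its partner in cluster biology, rhi, had no such peak. The gene (FBgn0004400) is on 2R, minus strand, from 17628491 to 17633516, inside the larger gene CG10936, and has no divergent partner. No list held a summit within 500 bp of the rhi TSS. The one pooled region in its window, of signal 122 (rank 11724), had its summit 1728 bp upstream, in an intron of CG10936. It was found at 1.27 and 1.38 times the median in replicates 1 and 2 and not in replicate 3. Replicate 1 also had a region in an intron of rhi itself, 4707 bp downstream of the TSS, at 0.898 times the median (rank 17267). The nearest reproducible summit was 28794 bp from the rhi TSS.

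Panx encodes the adaptor between Piwi on nascent transcripts and the machinery of chromatin silencing. The gene (FBgn0034617) is on 2R, minus strand, from 21310368 to 21312354, and the TSS of CG9485 on the other strand is only 45 bp upstream. The reproducible peak, from 21312364 to 21312799, had a signal of 67.1, 89.7 and 83.6 in replicates 1, 2 and 3, at ranks 6067, 4661 and 6519, and of 255 in the pooled list, at rank 4770. These are 2.07 ± 0.218 (SD, n = 3) times the median, and the peak was among the strongest 6565 regions of each replicate, close to the last of them in replicate 3. The pooled summit, 228 bp upstream of Panx, lay in an intron of CG9485 and 92 bp upstream of an inner TSS of that gene. Replicates 1 and 2 each had a further region within CG9485, 880 bp upstream of Panx at 1.40 times the median in replicate 1 and 893 bp upstream at 1.10 times in replicate 2.

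The gene of Piwi itself, the nuclear PIWI protein, also had a modest peak at its start. The gene (FBgn0004872) is on 2L, minus strand, from 10982205 to 10987420, and its divergent partner CG12253 starts 386 bp away. The peak, from 10987378 to 10987813, had a signal of 56.2, 80.8 and 125 in replicates 1, 2 and 3, at ranks 7776, 5429 and 3692, and of 266 in the pooled list, at rank 4532. Replicate 3 was the highest and replicate 1 the lowest, outside its strongest 6565 regions, and the mean was 2.20 ± 0.612 (SD, n = 3) times the median. The summits fell 136, 326 and 139 bp upstream of the piwi TSS. In replicate 2 the summit was thus nearer CG12253, at 60 bp from its TSS, and in replicates 1 and 3 nearer piwi. Replicate 3 also had a second, overlapping region of 2.42 times the median (rank 4679) with its summit 47 bp from the CG12253 TSS, so that both positions were called in that replicate.

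An intron of piwi held a second region whose replicates were further apart. Its pooled summit was 1028 bp downstream of the TSS, with a signal of 194 at rank 6767, just outside the reproducible set. In replicate 3 it stood at 2.88 times the median (rank 3674), about level with the region at the TSS in the same replicate. In replicates 1 and 2 it stood at 1.21 and 0.825 times the median (ranks 11777 and 19347). Replicate 3 alone placed it among its strongest 6565 regions.

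The window of zuc, the smallest of these genes, held 3 reproducible peaks. The gene (FBgn0261266) encodes the endonuclease that forms the 5′ ends of phased piRNAs and is on 2L, minus strand, from 11988735 to 11989882. The strongest of the peaks, from 11990665 to 11991007, had a signal of 365, 489 and 448 in replicates 1, 2 and 3, or 11.2 ± 1.25 (SD, n = 3) times the median, and a pooled signal of 1297. Its summit was 970 bp upstream of zuc but 75 bp upstream of the TSS of escl, a Polycomb group gene, in the 3′ UTR of dgt2. The nearest TSS was thus that of escl, not that of zuc.

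The peak at the start of zuc was the weakest reproducible peak of the 10 genes. It spans 11989741 to 11990176, with a signal of 62.4, 66.7 and 72.1 in replicates 1, 2 and 3, and ranked 6695, 7084 and 7963, outside the strongest 6565 regions of every replicate. In the pooled list its signal was 219, at rank 5825. Relative to the median it was 1.74 ± 0.0968 (SD, n = 3), with less spread than the peaks of piwi or Panx. The TSSs of zuc and of dgt2, which encodes a subunit of the augmin complex of the spindle, are 54 bp apart. The summits lay beyond this gap in replicates 1 and 2, at 173 and 102 bp upstream of zuc, inside dgt2, and within it in replicate 3, at 51 bp.

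Beyond the 3′ end of zuc, the third peak lay between CG6686 and CG34163, with its summit 54 bp upstream of CG6686. It spans 11987875 to 11988310 and had a signal of 46.7, 82.9 and 129 in replicates 1, 2 and 3, or 2.16 ± 0.791 (SD, n = 3) times the median, and 276 in the pooled list. As at piwi, replicate 3 was the highest (rank 3511) and replicate 1 the lowest (rank 9899).

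**Figure D2:**
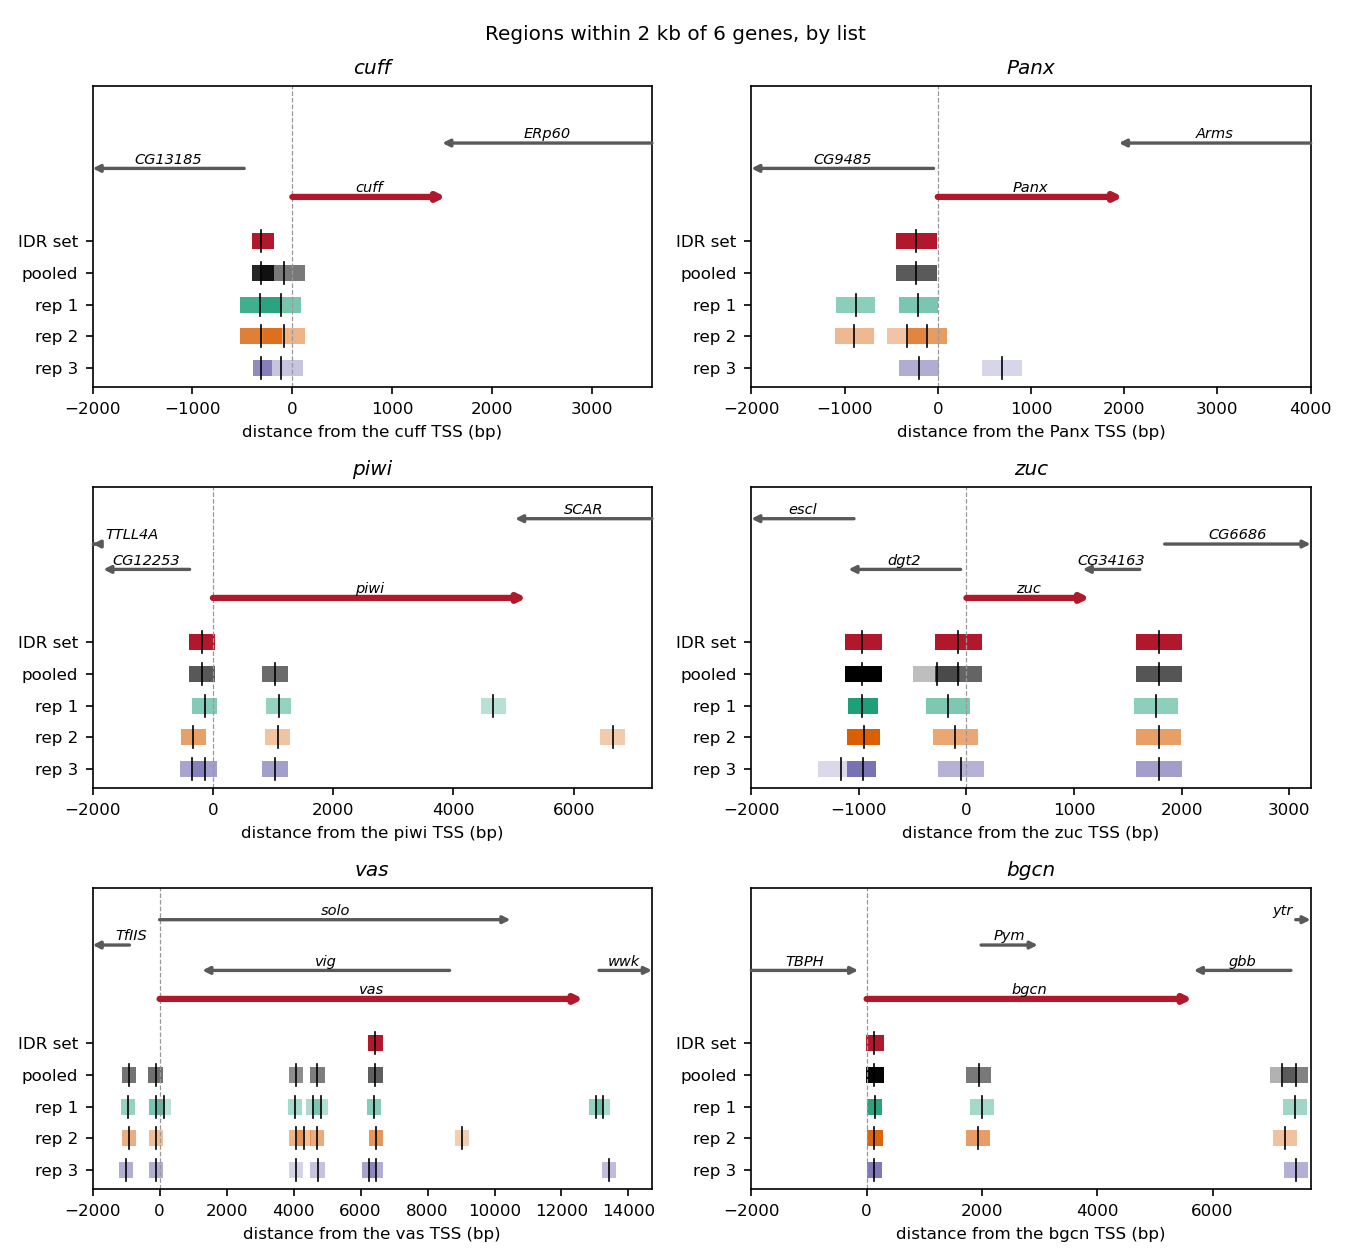
Regions in the windows of 6 genes, drawn by distance in bp from the TSS of the gene named above each panel, with transcription of that gene to the right. Arrows are protein-coding genes, the gene described in red, and rows are the reproducible (IDR) set, the pooled list and the 3 replicates, with a black line at each summit and deeper colour for a higher multiple of the list's median (the IDR set is drawn at full colour). At cuff, Panx and piwi the reproducible peak lies upstream of the TSS, between or inside divergent genes. At zuc 2 of 3 lie upstream and 1 beyond the 3′ end, at bgcn the peak lies downstream of the TSS, and at vas 6445 bp downstream.

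The reproducible peak of vas was not at its start. The gene (FBgn0283442), whose product is a DEAD-box helicase of nuage and germ plasm, is on 2L, plus strand, from 15061656 to 15074311. The peak, from 15067883 to 15068318, lay in an intron of vas and of solo, 6445 bp downstream of their shared TSS. There it was 23 bp upstream of an inner TSS of vig, a gene on the other strand within the vas introns. Its signal was 53.5, 99.1 and 111 in replicates 1, 2 and 3, at ranks 8293, 4078 and 4413, or 2.22 ± 0.560 (SD, n = 3) times the median, and 235 in the pooled list. Replicate 1 was again the lowest. In replicate 3 the strongest summit lay 6260 bp downstream of the vas TSS, in the 5′ UTR of vig, and a second, overlapping region of 1.89 times the median had its summit at 6469 bp, close to the 6467 bp of replicate 2. Replicate 1 had its summit at 6398 bp.

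At the shared start of vas and solo, the pooled list held a region of signal 183 (rank 7234), outside the reproducible set. The replicates were not alike there. The region stood at 2.08 times the median in replicate 1 (rank 5641), 0.924 times in replicate 2 (rank 16709) and 1.86 times in replicate 3 (rank 6764). The summits nonetheless fell within 23 bp of each other, at 94, 117 and 113 bp upstream. The divergent neighbour TfIIS, an elongation factor gene 899 bp away, had its own weak region at 16 bp downstream of its TSS, with 1.49 ± 0.333 (SD, n = 3) times the median.

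No list held a region in the windows of aub or AGO3, the PIWI proteins of the ping-pong cycle. The gene aub (FBgn0000146) is on 2L, minus strand, from 10997819 to 11001476 and has 2 TSSs and a divergent partner, lectin-33A, at 596 bp. The nearest summit was that of the ribosomal protein gene RpL9, 2634 bp from an aub TSS, with a pooled signal of 907 (rank 769). AGO3 (FBgn0250816) is on 3L, plus strand, from 23554593 to 23689640, and its body, 135048 bp long, is 70.5% annotated transposable elements. The nearest pooled summit was 338750 bp from it. Of the 83 genes of at least 100000 bp, 16 had no pooled region in their window, and both that are at least 50% transposable elements, of which AGO3 is 1, were among these. Reads from repeats often map to several places, and the part of this in the absence of regions at AGO3 was not tested. A window without a region in these lists means none among the strongest 30000, not that the protein was absent.

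The partner of bgcn, bam, had no reproducible peak either. The gene (FBgn0000158) is on 3R, minus strand, from 25243039 to 25245109, with no divergent partner. A pooled region 173 bp upstream of its TSS had a signal of 50.8 and ranked 29668 of 30000, with a deposited −log10 q-value of 0.360. No replicate had a region over this summit. Replicate 2 had a region with its summit 53 bp downstream of the TSS at 0.928 times the median, and replicate 3 one 514 bp upstream at 0.884 times. The nearest reproducible peak was that of RpS27, a ribosomal protein gene, 2406 bp from the bam TSS, at a pooled signal of 2492 (rank 88).

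Taken by strength, the 8 reproducible peaks fell into a strong and a weak part. Those at escl, bgcn and cuff were at pooled ranks of 405, 596 and 1414 and within the strongest 1624 regions of every replicate. The other 5, with pooled ranks between 4320 and 5825, were between 1.74 and 2.22 times the list's median on average. Of these 5, the Panx peak alone was among the strongest 6565 regions of all 3 replicates. The peaks at escl, bgcn and cuff were also narrower, 343, 312 and 223 bp, where the other 5 had 436 bp, the most common width in the reproducible set. Their replicate summits fell within 16, 13 and 6 bp of each other, against 29 to 207 bp for the other 5. Over all 6262 reproducible peaks with a region over the summit in every replicate, the median spread was 35 bp for the 3079 peaks narrower than 436 bp and 62 bp for the 3183 of at least that width. The median pooled signal of the 5 genes with a TSS peak was 266, beside 411 for all 3456 genes with one.

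**Figure D3:**
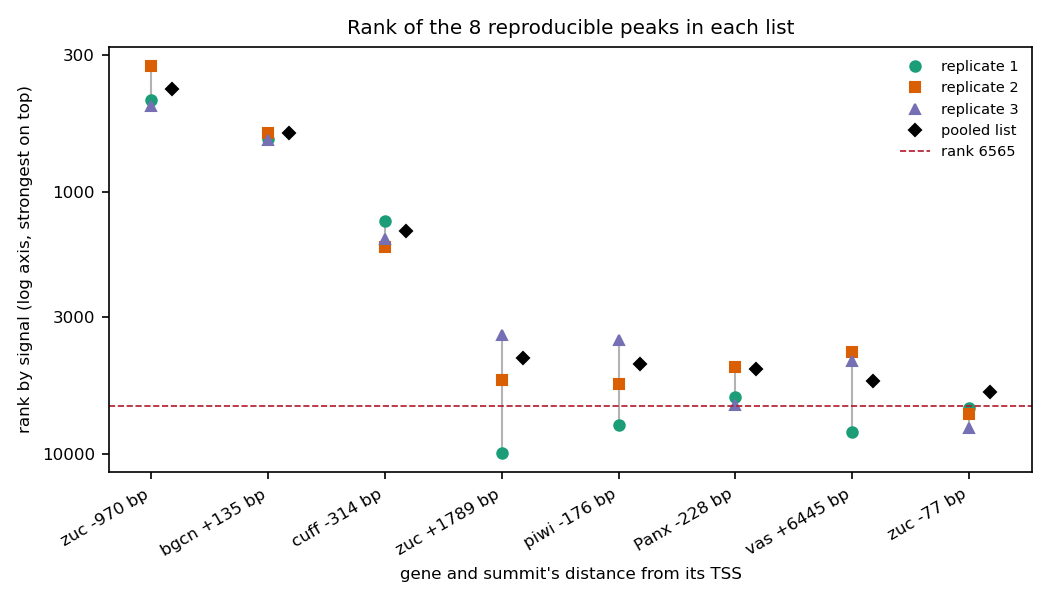
Rank by signal of the 8 reproducible peaks in the windows of the 10 genes, in the lists of replicates 1, 2 and 3 and in the pooled list, on a log axis with the strongest on top. Each peak is named by the gene and by the distance of its summit from the gene's TSS in bp, and the dashed line marks rank 6565. The peaks at escl (zuc -970 bp), bgcn and cuff stay within the strongest 1624 regions of every list, and the other 5 spread around the line.

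By gene arrangement, 4 of the 5 genes with a TSS peak had a divergent partner, and so had 2 of the 5 without, aub and vas. Among all genes, 36.2% had such a partner, 59.3% of those with a TSS peak and 28.6% of those without. Read the other way, 4 of the 6 genes with a partner and 1 of the 4 without had a TSS peak, beside 40.6% and 15.8% of all genes with and without one. In each of the 4 pairs the partner shared the same summit. Where a summit counted for its closest TSS alone, piwi and bgcn kept their peak, and 19.3% of all genes had one by this rule. The peaks of cuff, Panx and zuc went to CG13185, CG9485 and dgt2. The call for these 3 genes therefore rests on counting a shared summit for both genes of a pair.

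Sequence in the 101 bp around the summit was searched on both strands for 9 motifs of Drosophila promoters and enhancers, in the 8 reproducible peaks and the 4 further pooled regions with a summit within 500 bp of a TSS of cuff, vas, zuc or bam. The core GGTCACACT of the motif bound by M1BP was in 1 of the 12 windows, that of the zuc and dgt2 start, where it is the longer capital run printed above, beside 0.655% of all 6565 reproducible windows. CGATA, the core of the BEAF-32 motif, which also lies inside the DRE, was in 2, those of cuff and of zuc and dgt2, beside 14.4%. The CGATA printed above for zuc to dgt2 runs past the edge of the searched window and is not the match counted here. CAGCTG was in 1, that of Panx, beside 4.40%, and the initiator letters TCAGT were in 3, those of bam and of the zuc start and the region beyond its 3′ end, beside 17.2%. None of the 12 held the DRE (TATCGATA, 1.2% of all windows), GAGAG (9.60%), CAGGTAG (0.427%), GATAAG (6.15%) or TATAAA (21.9%). A match says only that these letters are in the window.

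Further genes of the same processes were taken from 2 wider lists, which include the 10 where they belong. Of 52 piRNA pathway genes 13 had a reproducible summit within 500 bp of a TSS (exact 95% interval of the share 14.0% to 38.9%), beside the 24.8% of all genes. Without the 10 genes described, 9 of the other 44 had one, 20.5%. With a window of 1000 bp, 22 of the 52 had one, beside 28.6% of all genes. By role the 13 were 1 of 14 genes for cluster transcription and export, cuff alone, 6 of 13 for silencing on chromatin, 4 of 13 for processing and 2 of 13 for ping-pong and nuage, where BoYb, which had no such summit, is listed under both processing and nuage. For the 14 genes of cluster transcription the exact 95% interval was 0.181% to 33.9% and for the 13 of silencing 19.2% to 74.9%, so that both intervals hold the share of all genes. Beside the genes above, the peaks for silencing were those of Mi-2, a remodeller gene, at a signal of 7304, the gene of HP1a at 331, wde at 318, and ctp, a dynein light chain gene, at 265. The peaks for processing were those of papi, a Tudor protein gene, at 1415, Nbr, which encodes a trimming nuclease, at 389, and mino at 272. In the nuage group tapas had 509 and spn-E, a helicase gene, 244.

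Of 30 germline genes 11 had such a peak, 36.7% (exact 95% interval 19.9% to 56.1%), beside the same 24.8%. After bgcn these were orb, a regulator of oocyte translation, at 1003, Sxl, the sex determination switch, at 915, stwl at 399, brat at 385 and gcl, needed for germ cell formation, at 354. The weaker ones were nanos, a translational repressor of germ cells, at 271, piwi, twin, a deadenylase gene, at 263, pum, which encodes the partner of Nanos, at 240, and Rbfox1 at 211. The median signal of the peaks was 354 in the germline list and 318 in the piRNA list, beside 411 for all genes with a TSS peak. Without the 10 genes described, 9 of the other 26 germline genes had a TSS peak, 34.6%.

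**Figure D4:**
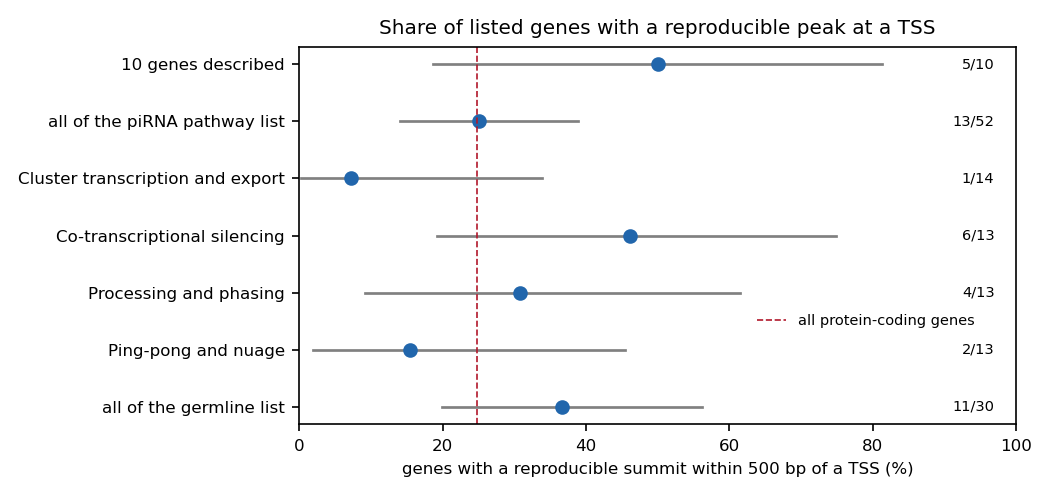
Share in percent of listed genes with a reproducible summit within 500 bp of a TSS, for the 10 genes described, the list of 52 piRNA pathway genes and its roles, and the list of 30 germline genes. Points are shares, bars exact 95% binomial intervals over genes, figures at the right the counts, and the dashed line the 24.8% of all protein-coding genes, which lies within every interval.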

How the data were processed

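The authors called regions for each replicate from its alignments and 1 control, called a pooled list from all replicates and derived the IDR set, on dm6, per the file lists in the labels. Not given in the sources used here are the aligner, the caller and the threshold of the IDR. For each region, the deposited signal value and −log10 q-value are the authors' own, and the deposited summit offset gives the summit. The dm3 lists were not used here. Gene models came from Ensembl release 115 and sequence from RefSeq Release 6. Every region ends within its arm. The 52 and 30 listed genes were matched by symbol, with 4 newer symbols (Nxf3, Boot, kipf, DCP1).

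Calculations used Python 3.11.15, numpy 2.4.6, scipy 1.17.1, pandas 2.3.3 and matplotlib 3.10.9. A replicate's value for a pooled region is its strongest region over the pooled summit. Distances are to the nearest protein-coding TSS. No test was run, as there is 1 group, and spreads are over 3 replicates. Intervals cover counting error only. The code that assigns summits to TSSs was tested on simulated summits, planted at known distances from TSSs. Members, lists and settings were chosen with earlier results of these data known. Genes named are the 10, their neighbours, listed genes with a TSS peak (up to 12 a list) and the 3 most like bgcn. Alternative settings are in the closing section.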

Additional observations from a re-analysis of the deposited data

How the results depend on the processing

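The counts were recomputed with other TSS windows, flanks, thresholds and replicates. Of 10 genes, 5 had a TSS peak. This became 2 with each summit given to the nearest TSS (piwi and bgcn), beside 19.3% of all genes. With the strongest 3282 peaks of the reproducible set it became 2 (cuff and bgcn), beside 15.2%. A peak was called matched in a replicate where 1 of that replicate's strongest 6565 regions covered at least 50% of the peak. With only peaks matched in all 3 replicates, an alternative chosen after seeing the data, the 5 became 3 (cuff, Panx and bgcn), beside 16.5%. Leaving out a replicate, by keeping peaks of the reproducible set matched in both others, gave 3 to 4, beside 18.1% to 18.7% of all genes. The set itself still came from all 3 replicates, so this count could only stay or fall. Without replicate 1 zuc was lost, and without replicate 2 or replicate 3 also piwi. Both peaks have a region in every replicate, but beyond rank 6565 in replicate 1 for piwi and in all 3 for zuc. The 3 genes with a TSS region in all replicates became 1 by the nearest TSS (bgcn), beside 13.1% of all genes. With whole lists they became 6, beside 38.4%, and without a replicate 3 to 4, beside 19.9% to 21.2%. The 6 genes with a peak in body plus 2000 bp became 2 without flanks (vas and bgcn), beside 16.6% of all genes. With those 3282 they became 3, beside 28.2%. By the same matching as for TSS peaks, leaving out a replicate gave 4 to 6, beside 33.7% to 34.2%. The genes vas and piwi were lost without replicate 2 or replicate 3. With a flank of 5000 bp the 6 became 8, beside 56.4%, as the peaks of RpL9 and RpS27 then counted for aub and bam. The piRNA list's 13 became 22 with a window of 1000 bp, where the share of all genes was 28.6%, and 5 with those 3282, beside 15.2%. The germline list's 11 became 6 with those 3282, beside the same 15.2%. The cause of these differences was not tested. In all, 21 recomputed counts stayed within 1.5 times, some of those above included, and 12 moved by more. No paired analysis was possible because there is 1 group. Depth is unknown, so no limit from it can be given.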
